A study of Mus musculus with 15 samples.

Results

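The genes described here are receptors that sense microbial lipids and RNA, the adaptor that carries their signal, and feedback genes of the transcription factor NF-kB. They were chosen by name, with earlier results of these data known: Tlr2, Tlr3, Tlr4, Cd14, Ly96, Myd88, Nfkb1, Nfkbia, Tnfaip3 and Tnfaip6. A member had to have a row of the array table annotated to it and to no other gene. This held for 9 of the 10 names, out of 14996 such single-gene rows and 16755 rows in all, and Nfkb1 had no such row.

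Toll-like receptors are membrane proteins that recognise parts of microbes. TLR4 detects bacterial lipopolysaccharide with the help of MD-2 (the product of Ly96) and CD14, TLR2 detects lipoproteins, and TLR3 detects double-stranded RNA. All except TLR3 signal through the adaptor MyD88, whereas TLR3 uses the adaptor TRIF, which TLR4 also uses. Both routes free NF-kB from its inhibitor IkB-alpha (Nfkbia), and NF-kB then induces Nfkbia itself and Tnfaip3 (A20, a ubiquitin-editing enzyme), which shut the signal down. Fibroblasts carry several of these receptors and answer their ligands with cytokines and with matrix proteins such as TSG-6 (Tnfaip6), which binds hyaluronan.

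Exon arrays of Affymetrix (Mouse Exon 1.0 ST) were used to measure RNA in 5 groups of mouse embryonic fibroblasts (MEFs), with 3 arrays in each and 15 in all, to identify genes regulated by Mta1 with and without P53. Mta1 codes for a subunit of the NuRD chromatin remodelling complex. Each value is a log2 value centred on the median of its row over the 15 arrays, so values compare arrays within a gene, and no level can be compared between genes. A gene was called at a limma adjusted p under 0.05 over all rows and a fold of at least 2, and "adjusted p alone" drops the fold.

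The WT group was wild type MEFs from embryonic day 9.0, and the Mta1-KO group was Mta1-/- MEFs of the same day. The Mta1-KO/Mta1 group was Mta1-/- MEFs of day 9.0 in which Mta1 was re-expressed after transfection. The P53-KO group was P53-/- MEFs of day 12.5, provided by another laboratory, and the P53-KO/Mta1 group was such MEFs with Mta1 over-expressed. All were of strain C57BL/6J and grown in serum-containing medium, and the sources used here state no stimulation with a TLR ligand. The P53 genotype, the embryonic day and the source of the cells cannot be told apart. Below, "before" and "after" Mta1 was added name the P53-KO and P53-KO/Mta1 groups, which are separate arrays and were not treated as pairs. The study calls the 3 arrays of each group biological replicates. The sources used here do not say whether these were separate embryos or separate cultures, or whether the transfected cells were 1 clone or a pool. The p-values therefore reflect only the spread among these arrays, part of which may be technical.

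The Mta1 row read 0.08, -0.06 and 0.00 on the WT arrays and -1.06, -1.08 and -1.10 on Mta1-KO arrays. Mta1-KO/Mta1 arrays read -1.13, -1.35 and -1.28, not above Mta1-KO (difference -0.17, adjusted p = 0.067). P53-KO arrays read 0.36, 0.52 and 0.37, and P53-KO/Mta1 arrays 0.65, 0.76 and 0.65 (difference 0.27, adjusted p = 0.0060). The Mta1-KO/Mta1 arrays therefore carry their group name as labelled, and the sources used here do not say whether the probes cover the introduced sequence. The study also examined Mta1 protein in the 5 groups by Western blot, which is not analysed here. Directions given for added Mta1 in the Mta1-/- MEFs rest on those labels. Correlations between arrays of a group were 0.868 to 0.961 over all rows. Of 12 fibroblast markers, all had a row, and their mean value per array was -1.22 to -1.14 for WT and 0.315 to 0.344 for Mta1-KO arrays. It was -0.184 to -0.146 for Mta1-KO/Mta1, 0.520 to 0.644 for P53-KO, and -0.066 to 0.062 for P53-KO/Mta1 arrays. Of 16 markers of macrophages and other blood cells, cells rich in these receptors, 15 had a row, and their mean stayed within -0.052 to 0.103 on all arrays. Centred values hold no level, so whether any marker is present cannot be read from them. In bulk RNA, fewer cells of a type and less RNA per cell cannot be told apart.

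The members fell into different patterns over the 5 groups. Tlr3 and Tlr4 were high in both groups of Mta1-/- MEFs, Cd14 was low there, and Tnfaip6 and Tlr2 were lower in both groups with added Mta1 than in their parent MEFs. Nfkbia was lowest in Mta1-KO/Mta1, and Tnfaip3 was below WT in both groups of Mta1-/- MEFs and above it in both P53-KO groups. The panels of values by array show each gene on its own centred scale.

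**Figure D1:**
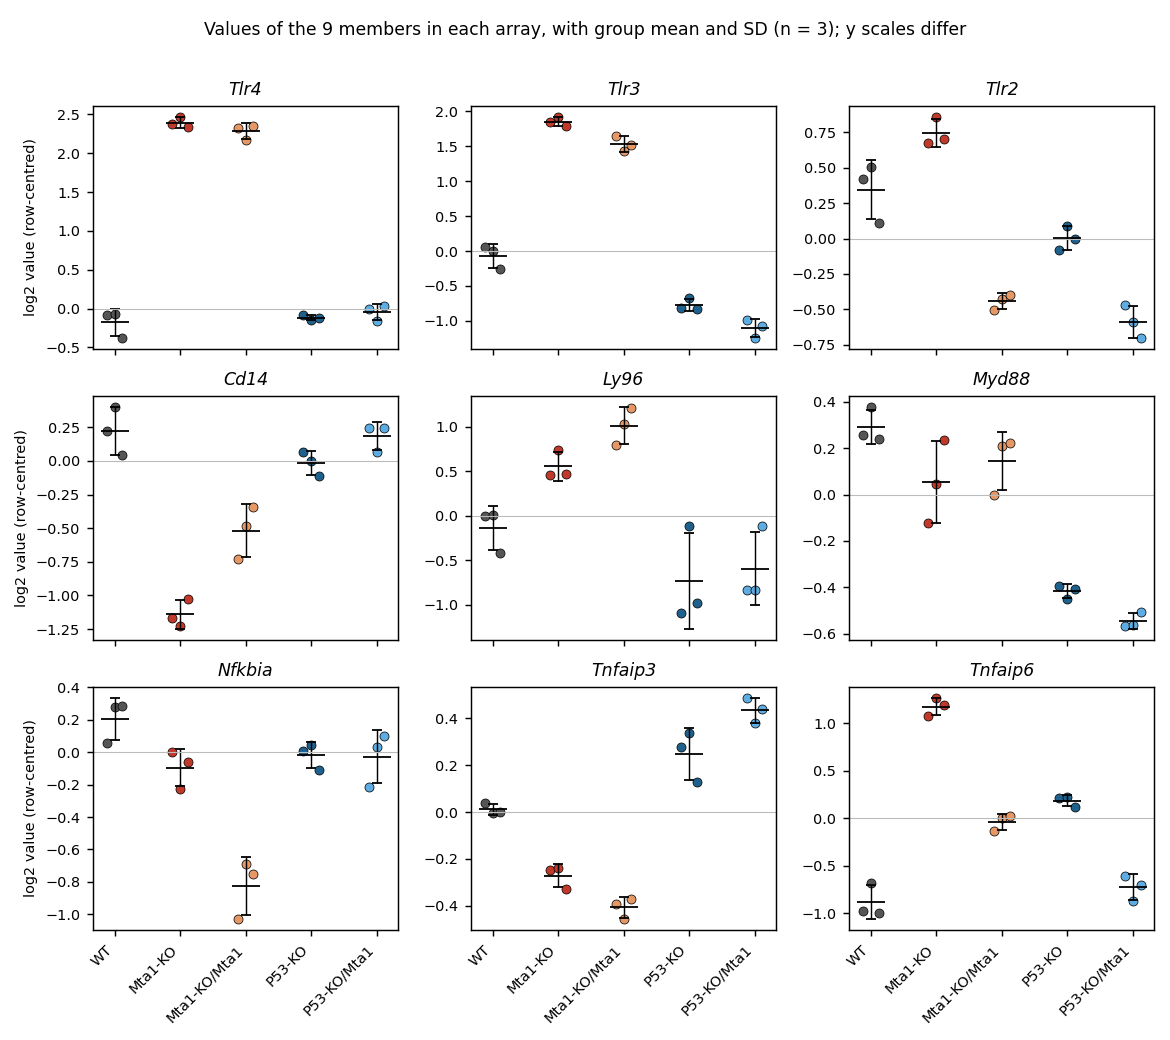
Centred log2 values of the 9 genes (y axis) in each of the 15 arrays, by group (x axis), with 3 points a group and lines for the group mean and SD. The Tlr4 points of Mta1-KO and Mta1-KO/Mta1 lie between 2.17 and 2.47, and those of the other 3 groups between -0.38 and 0.03.

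The stretches just upstream of the annotated starts of 4 members, among those with a promoter entry, are printed as examples. They are the 250 bases before the start, 5′ to 3′ on the strand of the gene, from RefSeq annotation of build GRCm38.p6. Capitals mark matches on either strand to kB-like letters, a form of the sites that NF-kB binds: GGG, then 3 free bases, then TTCC.
Tlr2, chr3:83841609-83841858, minus strand: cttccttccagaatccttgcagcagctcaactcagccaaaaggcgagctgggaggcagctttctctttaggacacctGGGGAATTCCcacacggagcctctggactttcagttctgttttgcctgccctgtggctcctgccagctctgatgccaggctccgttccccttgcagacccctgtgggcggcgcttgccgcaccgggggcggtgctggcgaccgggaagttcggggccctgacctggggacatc
Tlr3, chr8:45410381-45410630, minus strand: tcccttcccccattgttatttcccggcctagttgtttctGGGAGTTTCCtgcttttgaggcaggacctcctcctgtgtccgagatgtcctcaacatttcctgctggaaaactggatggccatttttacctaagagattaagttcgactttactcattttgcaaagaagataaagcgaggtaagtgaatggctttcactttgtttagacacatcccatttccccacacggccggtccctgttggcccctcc
Nfkbia, chr12:55492648-55492897, minus strand: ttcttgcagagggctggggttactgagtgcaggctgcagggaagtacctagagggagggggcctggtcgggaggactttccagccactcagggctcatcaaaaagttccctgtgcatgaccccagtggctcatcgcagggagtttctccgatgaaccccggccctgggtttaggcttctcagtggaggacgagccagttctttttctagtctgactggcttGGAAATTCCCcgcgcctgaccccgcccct
Tnfaip6, chr2:52037863-52038112, plus strand: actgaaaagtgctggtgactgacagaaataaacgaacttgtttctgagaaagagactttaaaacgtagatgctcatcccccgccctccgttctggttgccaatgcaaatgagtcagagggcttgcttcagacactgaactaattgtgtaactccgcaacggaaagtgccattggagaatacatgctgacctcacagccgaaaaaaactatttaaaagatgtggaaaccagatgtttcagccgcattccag

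Promoter entries were found for 6 of the 10 names. The kB-like letters stood in the windows of Tlr2 (GGGGAATTCC, bases -173 to -164 from the start), Tlr3 (GGGAGTTTCC, -211 to -202) and Nfkbia (GGAAATTCCC, the reverse strand, -29 to -20). Tnfaip3 has 2 annotated starts, one with GGGTTATTCC at -90 to -81 and the other with GGAAATCCCC on the reverse strand at -12 to -3. The windows of Tnfaip6 and Myd88 held none. Myd88 alone among them held a form of the interferon response element, GAAA, then 2 free bases, then GAAA, as GAAAGCGAAA at -40 to -31. Of all 32841 promoter windows of this length, 4.65% held the kB-like letters and 2.98% the other motif on either strand. The 2 motifs share no overlapping match in these windows. A match is a description of the letters and not a measured site.

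Tlr4, the lipopolysaccharide receptor, had the largest range of group means after Tlr3 among the members. Tlr4 read -0.08, -0.07 and -0.38 on the WT arrays, 2.37, 2.47 and 2.34 on Mta1-KO arrays, and 2.33, 2.17 and 2.35 on Mta1-KO/Mta1 arrays. With P53 deleted it read -0.09, -0.15 and -0.12 before and 0.00, -0.16 and 0.03 after Mta1 was added. The 6 arrays of Mta1-/- MEFs stood apart from the other 9, which overlapped. Tlr4 rose 5.93-fold in Mta1-KO over WT (log2 difference 2.57 ± 0.084 SE, n = 3 per group, adjusted p = 6.3e-12). It stayed 5.49-fold above WT in Mta1-KO/Mta1 (2.46, adjusted p = 1.51e-11). The difference between Mta1-KO/Mta1 and Mta1-KO was -0.11 (95% interval -0.29 to 0.07, adjusted p = 0.41), and after quantile normalization it was 0.36 with adjusted p = 0.0077. Between P53-KO/Mta1 and P53-KO the difference was 0.07 (interval -0.11 to 0.25, adjusted p = 0.59).

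Tlr3, the endosomal receptor for double-stranded RNA, had a similar rise and a further step down in the P53-KO groups. Tlr3 read 0.06, 0.00 and -0.26 on the WT arrays, 1.85, 1.92 and 1.80 on Mta1-KO arrays, and 1.65, 1.43 and 1.52 on Mta1-KO/Mta1 arrays. With P53 deleted it read -0.82, -0.68 and -0.83 before and -0.99, -1.25 and -1.08 after Mta1 was added. No pair of groups overlapped. Tlr3 rose 3.79-fold in Mta1-KO over WT (1.92 ± 0.091 SE, adjusted p = 4.24e-10) and was 1.63-fold lower in P53-KO than in WT (adjusted p = 1.12e-05). Adding Mta1 went with nearly equal differences of -0.32 in the Mta1-/- MEFs (adjusted p = 0.016) and -0.33 in the P53-/- MEFs (adjusted p = 0.014). Neither reached 2-fold. The first became 0.05 after quantile normalization (adjusted p = 0.788), and each lost adjusted p under 0.05 without replicate 2 of either of its groups, at 0.0562 and 0.0688 for the first and 0.0531 and 0.0696 for the second. By the methods' t-test the adjusted p was 0.0564 for the first and 0.102 for the second. The difference between these responses was 0.00 (interval -0.27 to 0.28, adjusted p = 0.99), and 0.57 after quantile normalization (adjusted p = 0.015).

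Tlr2, the lipoprotein receptor, did not follow Tlr3 and Tlr4. Tlr2 read 0.42, 0.50 and 0.11 on the WT arrays, 0.68, 0.86 and 0.70 on Mta1-KO arrays, and -0.51, -0.42 and -0.40 on Mta1-KO/Mta1 arrays. On the P53-/- arrays Tlr2 read -0.08, 0.09 and 0.00 before and -0.47, -0.59 and -0.70 after Mta1 was added. Both groups with added Mta1 lay below all other arrays and overlapped each other (difference 0.15, adjusted p = 0.26). Tlr2 fell 2.28-fold in Mta1-KO/Mta1 against Mta1-KO (-1.19 ± 0.094 SE, adjusted p = 7.07e-07). The corresponding decrease in P53-/- MEFs was 1.51-fold (-0.59, adjusted p = 0.00027), and the fall in the Mta1-/- MEFs was greater by 0.60 on the log2 scale (adjusted p of the difference = 0.0063). Against WT, Tlr2 was 1.32-fold higher in Mta1-KO (0.40, adjusted p = 0.0030, and 0.0987 by the methods' t-test) and 1.72-fold lower in Mta1-KO/Mta1 (adjusted p = 1.01e-05).

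Cd14, the co-receptor that passes lipopolysaccharide to TLR4, moved against Tlr4. Cd14 read 0.22, 0.40 and 0.04 on the WT arrays, -1.17, -1.23 and -1.02 on Mta1-KO arrays, and -0.73, -0.48 and -0.34 on Mta1-KO/Mta1 arrays. The P53-/- arrays gave 0.07, 0.00 and -0.11 before and 0.24, 0.07 and 0.24 after Mta1 was added. The 3 Mta1-KO arrays were the lowest and the 3 Mta1-KO/Mta1 arrays came next, with no overlap. Cd14 fell 2.57-fold in Mta1-KO against WT (-1.36 ± 0.11 SE, adjusted p = 9.99e-08). It was 1.54-fold higher in Mta1-KO/Mta1 than in Mta1-KO (0.62, adjusted p = 0.00051), and still 1.67-fold below WT (adjusted p = 5.51e-05). Csf1r, a macrophage receptor gene, was the 1 of the 15 blood-cell markers called in Mta1-KO against WT, at -1.70. The list did not move as a whole: by adjusted p alone 2 markers were higher and 2 lower, and the median difference was 0.04. The part of blood cells in the Cd14 result was not tested.

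Ly96, whose product MD-2 holds the lipid part of lipopolysaccharide, was the least precise member. Ly96 read 0.00, 0.01 and -0.42 on the WT arrays, 0.45, 0.74 and 0.47 on Mta1-KO arrays, and 0.79, 1.03 and 1.21 on Mta1-KO/Mta1 arrays. Ly96 in P53-/- MEFs read -1.09, -0.11 and -0.98 before and -0.83, -0.84 and -0.12 after Mta1 was added. One array in each P53-KO group stood with the WT arrays. The SD within groups was 0.343, the 99.5th percentile of all rows, whose median was 0.0998. Ly96 was 2.21-fold higher in Mta1-KO/Mta1 than in WT (1.15 ± 0.24 SE, adjusted p = 0.0016). The 1.61-fold difference between Mta1-KO and WT had adjusted p = 0.036, and leaving out any 1 array of these groups other than WT replicate 2 raised it to between 0.0518 and 0.118. Mta1-KO/Mta1 was above Mta1-KO by 0.45 (interval -0.07 to 0.98, adjusted p = 0.21, and 0.026 with only the arrays of these groups). In the P53-/- MEFs the difference with added Mta1 was 0.14 (interval -0.39 to 0.66, adjusted p = 0.75).

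Myd88, the adaptor shared by most Toll-like receptors, was split mainly between the P53-KO groups and the others. Myd88 read 0.26, 0.38 and 0.24 on the WT arrays, -0.12, 0.05 and 0.24 on Mta1-KO arrays, and 0.00, 0.21 and 0.22 on Mta1-KO/Mta1 arrays. With P53 deleted it read -0.39, -0.45 and -0.41 before and -0.57, -0.56 and -0.51 after Mta1 was added. All 6 P53-/- arrays lay below the other 9, and the lowest WT and highest Mta1-KO array both rounded to 0.24. Against WT, Myd88 was 1.63-fold lower in P53-KO (-0.71 ± 0.082 SE, adjusted p = 3.88e-06), and 1.78-fold lower in P53-KO/Mta1 (adjusted p = 9.95e-07). The Mta1-KO value was 1.18-fold below WT with adjusted p = 0.033. That p rose above 0.05 without WT replicate 1 or 2 or Mta1-KO replicate 1 or 2, to between 0.0547 and 0.172. It was 0.208 by the methods' t-test, 0.119 after quantile normalization and 0.0943 with only the arrays of these groups. Added Mta1 came with differences of 0.09 (interval -0.09 to 0.27, adjusted p = 0.52) and -0.13 (interval -0.31 to 0.05, adjusted p = 0.30) in the Mta1-/- and P53-/- MEFs.

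Nfkbia, the NF-kB inhibitor and itself an NF-kB target, was low in 1 group. Nfkbia read 0.05, 0.28 and 0.28 on the WT arrays, 0.00, -0.22 and -0.06 on Mta1-KO arrays, and -1.03, -0.69 and -0.75 on Mta1-KO/Mta1 arrays. On the P53-/- arrays Nfkbia read 0.01, 0.04 and -0.11 before and -0.21, 0.03 and 0.10 after Mta1 was added. The Mta1-KO/Mta1 arrays were below the other 12, which spanned -0.22 to 0.28. Nfkbia was 2.04-fold lower in Mta1-KO/Mta1 than in WT (-1.03 ± 0.10 SE, adjusted p = 1.81e-06) and 1.66-fold lower than in Mta1-KO (-0.73, adjusted p = 0.00013). In the P53-/- MEFs the difference was -0.01 (interval -0.23 to 0.21, adjusted p = 0.96). The difference between the responses was -0.72 (adjusted p = 0.0036). Mta1-KO was 1.23-fold below WT with adjusted p = 0.033, which rose to between 0.0581 and 0.122 without WT replicate 2 or 3 or Mta1-KO replicate 2 or 3. By the methods' t-test it was 0.102.

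Tnfaip3, coding for the feedback enzyme A20, had small and precise differences. Tnfaip3 read 0.04, -0.0044 and 0.00 on the WT arrays, -0.25, -0.24 and -0.33 on Mta1-KO arrays, and -0.39, -0.46 and -0.37 on Mta1-KO/Mta1 arrays. The P53-/- arrays gave 0.28, 0.34 and 0.13 before and 0.49, 0.38 and 0.44 after Mta1 was added. No pair of groups overlapped, and none of the 10 pairs of groups differed 2-fold. Against WT, Tnfaip3 was 1.22-fold lower in Mta1-KO (-0.28 ± 0.057 SE, adjusted p = 0.00097) and 1.18-fold higher in P53-KO (adjusted p = 0.0027). With added Mta1 the differences were -0.14 in the Mta1-/- MEFs (adjusted p = 0.099) and 0.19 in the P53-/- MEFs (adjusted p = 0.023). The second had adjusted p = 0.116 without P53-KO replicate 3, 0.0841 without P53-KO/Mta1 replicate 1 and 0.0598 without its replicate 3. Its adjusted p was 0.184 by the methods' t-test and 0.110 with only the arrays of the compared groups. The difference between the responses was -0.32 (adjusted p = 0.013).

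Tnfaip6, whose product TSG-6 binds hyaluronan and is induced by inflammatory cytokines, was the 1 member called in both comparisons within the Mta1-/- series. Tnfaip6 read -0.98, -0.68 and -0.996 on the WT arrays, 1.08, 1.26 and 1.19 on Mta1-KO arrays, and -0.14, 0.00 and 0.02 on Mta1-KO/Mta1 arrays. Tnfaip6 in P53-/- MEFs read 0.21, 0.22 and 0.11 before and -0.61, -0.87 and -0.70 after Mta1 was added. Mta1-KO was highest, and WT and P53-KO/Mta1 overlapped at the bottom (difference 0.16, adjusted p = 0.19). Tnfaip6 rose 4.16-fold in Mta1-KO over WT (2.06 ± 0.090 SE, adjusted p = 1.75e-10) and fell 2.32-fold in Mta1-KO/Mta1 against Mta1-KO (-1.21, adjusted p = 4.02e-07). It remained 1.79-fold above WT (0.84, adjusted p = 3.21e-06). These comparisons share the Mta1-KO arrays. In the P53-/- MEFs it was 1.88-fold lower with added Mta1 (-0.91, adjusted p = 4.15e-06), and the difference between the responses was -0.31 (interval -0.58 to -0.03, adjusted p = 0.13).

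Counted together, 4 of the 9 members were called in Mta1-KO against WT, beside 6.64% of all 16755 rows. Because the members were chosen with earlier results of these data known, such counts are descriptions only. Tlr4, Tlr3 and Tnfaip6 rose, beside 4.23% of rows called higher, and Cd14 fell, beside 2.41% called lower. By adjusted p alone all 9 passed, beside 40.2% of all rows, 5 higher (17.6% of rows) and 4 lower (22.6% of rows), with the losses given above for Tlr2, Ly96, Myd88 and Nfkbia. WT and Mta1-KO did not overlap for any of the 9, beside 47.3% of all rows. The median member difference was 0.40, and that of all rows 0.03. Of the fibroblast markers, 6 of 12 (Col1a1, Pdgfra, Pdgfrb, Thy1, S100a4 and Dcn) were called higher in the same comparison, and their part in the members' changes was not tested. By adjusted p alone 11 of the 12 were higher and 0 lower. None of 8 endothelial markers was called there, and of 5 epithelial markers with a row 1 was (Krt19, -1.23).

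In Mta1-KO/Mta1 against Mta1-KO, 2 of 9 members were called, beside 1.11% of all rows. None was called higher, beside 0.322% of rows, and both (Tlr2 and Tnfaip6) fell, beside 0.788%. By adjusted p alone 5 passed, beside 28.0% of all rows, with the losses given above for Tlr3. Cd14 was higher, beside 12.4% of rows, and Tlr2, Tlr3, Nfkbia and Tnfaip6 were lower, beside 15.7%. The groups did not overlap for 7 members, beside 41.1%. Among all called rows 29.0% were higher, and 50.2% after quantile normalization. Of the fibroblast markers Col3a1 was called lower, and no blood-cell marker was called. By adjusted p alone 9 of the 12 fibroblast markers were lower, beside 15.7% of all rows, and 0 higher. The median fibroblast marker difference was -0.48, and its part in the members' changes was not tested.

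In P53-KO/Mta1 against P53-KO, 0 of 9 members were called, beside 1.62% of all rows (0.394% higher and 1.22% lower), and the methods' t-test also called 0. By limma's adjusted p alone 4 passed, beside 29.9% of all rows, with the losses given above for Tlr3 and Tnfaip3. Tnfaip3 was higher, beside 15.7% of rows, and Tlr2, Tlr3 and Tnfaip6 were lower, beside 14.2%. The groups did not overlap for 6 members, beside 37.2%. Among all called rows 24.4% were higher, and 35.1% after quantile normalization. The fibroblast markers Col3a1 and Lum were called lower, and no blood-cell marker was called. By adjusted p alone 9 of the 12 fibroblast markers were lower, beside 14.2% of all rows, and 0 higher. The median fibroblast marker difference was -0.68, and its part in the members' changes was not tested.

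**Figure D2:**
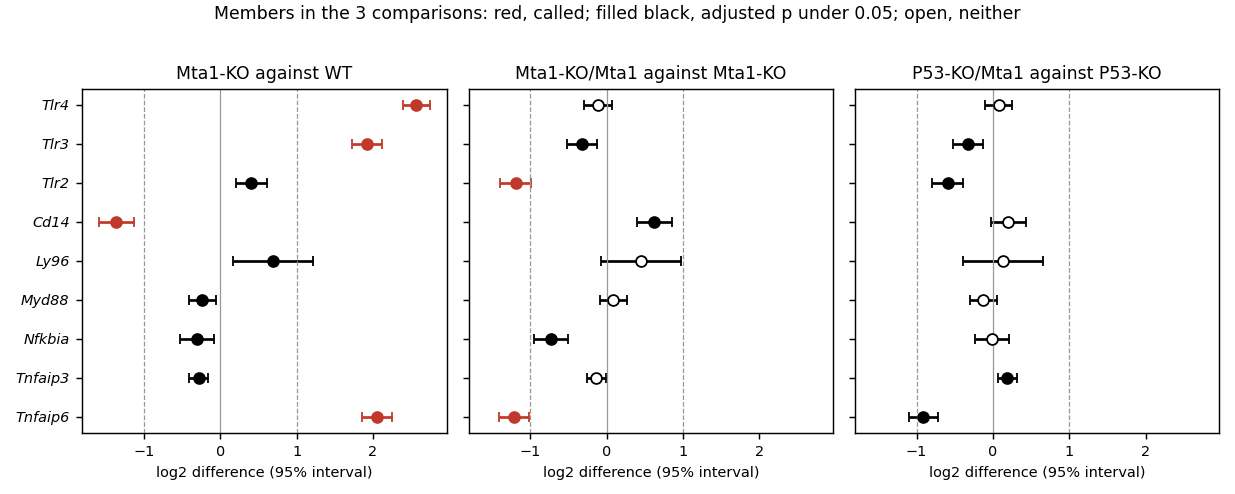
Log2 differences of the 9 genes in the 3 comparisons of the design, with 95% intervals from limma and lines at 2-fold. Tlr4 (2.57), Tnfaip6 (2.06) and Tlr3 (1.92) lie past the upper line in Mta1-KO against WT, and Tlr2 (-1.19) and Tnfaip6 (-1.21) past the lower one in Mta1-KO/Mta1 against Mta1-KO.

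The response to added Mta1 was compared directly between the Mta1-/- and the P53-/- MEFs. No member passed both thresholds for the difference, beside 1.63% of all rows. By adjusted p alone 3 did, Tlr2, Nfkbia and Tnfaip3, beside 17.4% of all rows. For each of them the response in the Mta1-/- MEFs was the lower one, beside 10.1% of all rows. The differences for the remaining members were 0.42 for Cd14 (adjusted p = 0.072, and 0.0216 without Mta1-KO/Mta1 replicate 1), -0.19 for Tlr4 (0.37), 0.32 for Ly96 (0.66) and 0.22 for Myd88 (0.26), beside those of Tlr3 and Tnfaip6 above. The embryonic day and the source of the cells differ between the backgrounds and cannot be told apart from the genotype.

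**Figure D3:**
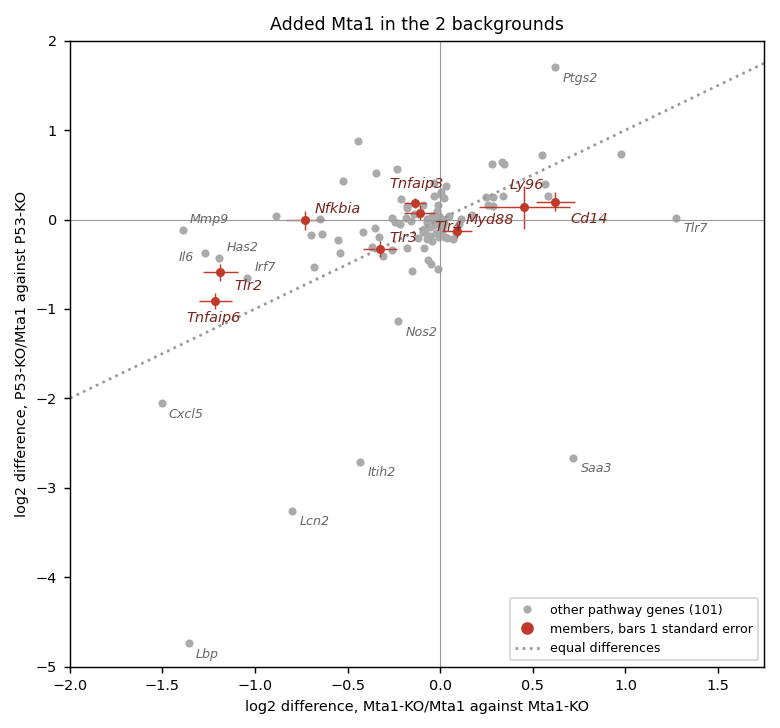
Log2 difference in P53-KO/Mta1 against P53-KO (y axis) plotted against that in Mta1-KO/Mta1 against Mta1-KO (x axis) for the 9 members (red, bars 1 standard error) and 101 other pathway genes (grey). Tlr2 (-1.19 and -0.59), Nfkbia (-0.73 and -0.01) and Tnfaip6 (-1.21 and -0.91) lie above the dotted line of equal differences.

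Against WT, the other 3 groups had fewer or equal counts of called members. Mta1-KO/Mta1 had 4 (Tlr3, Tlr4 and Ly96 higher, Nfkbia lower), beside 5.74% of all rows. P53-KO had 1 (Tnfaip6, 2.09-fold higher), beside 12.1%, and P53-KO/Mta1 had 1 (Tlr3, 2.05-fold lower), beside 7.67%. All 4 comparisons share the WT arrays.

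Over the 5 groups each member has 4 steps between neighbours in the order of group means, 36 in all. The step was past adjusted p under 0.05 in 18, beside 23.2% of such steps over all rows, and called in 2, beside 1.55%. The called steps were Tlr3 from WT to Mta1-KO/Mta1 (1.60) and Tlr4 from P53-KO/Mta1 to Mta1-KO/Mta1 (2.33). For Tlr4 the steps between WT, P53-KO and P53-KO/Mta1 were 0.06 and 0.07 (adjusted p = 0.59 in each), and that from Mta1-KO/Mta1 to Mta1-KO was 0.11. Cd14 ran from Mta1-KO through Mta1-KO/Mta1 to P53-KO, P53-KO/Mta1 and WT, of which the last 3 neighbours differed by 0.20 and 0.03 (adjusted p = 0.20 and 0.84).

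The likeness of patterns was described by Pearson's r over the 15 arrays, which fall into 5 groups and so are not independent points. Tlr3 and Tlr4 had r = 0.948, Tlr3 and Tnfaip3 r = -0.937, and Tlr4 and Cd14 r = -0.890. The row most like Tlr4 was that of Slfn3 (r = 0.997), followed by Aspa (0.996) and Ces2g (0.994). For Tlr3 they were Fbxo7 (0.995), Lgals3bp (0.991) and Mr1 (0.990). Tnfaip6 was most like Aox1 (0.986), Ece2 (0.980) and Aspn (0.979), and Tlr2 most like Scp2 (0.945), Hacl1 (0.943) and Fkbp14 (0.940). The highest for Cd14 were Fndc4 (0.974), Fzd3 (0.960) and Uchl1 (0.952), and for Tnfaip3 Serp2 (0.982), Myo9b (0.980) and Lonp1 (0.977). Nfkbia was most like Ube2z (0.973), Brat1 (0.969) and Apba3 (0.966). Myd88 was most like Pex11a (0.974), Poglut1 (0.973) and Diablo (0.966), and Ly96 most like Nfx1 and Etfbkmt (0.971 each) and Commd3 (0.961).

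A wider list of 109 genes around these members covered other receptors, adaptors and kinases, NF-kB subunits, feedback inhibitors, NF-kB targets and hyaluronan partners of TSG-6, and 101 had a single-gene row. This list too was chosen with earlier results of these data known, so its counts are descriptions only. In Mta1-KO against WT, 19 were called, beside 6.64% of all rows, 15 higher (4.23% of rows) and 4 lower (2.41%). By role, higher and lower calls were 1 and 0 of 15 other receptors and accessory proteins, 3 and 0 of 20 adaptors, kinases and interferon regulatory factors, and 1 and 1 of 8 NF-kB subunits and IkB proteins. They were 1 and 2 of 13 feedback inhibitors, 7 and 1 of 30 NF-kB targets, and 2 and 0 of 15 hyaluronan partners. Lbp, which carries lipopolysaccharide to CD14, had the largest difference (4.82), ahead of the iron-carrier binder Lcn2 (3.64) and the interferon regulatory factor Irf7 (3.41). The chemokine Cxcl10 (2.88), the adhesion receptor Vcam1 (2.44) and the pentraxin Ptx3 (1.82), which joins TSG-6 in the hyaluronan matrix, also rose. The 4 that fell were the chemokine Cxcl5 (-2.07), the deubiquitinase Cyld (-1.56), the phosphatase Dusp1 (-1.41) and the NF-kB subunit Rel (-1.29).

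In Mta1-KO/Mta1 against Mta1-KO, 7 of the 101 were called, beside 1.11% of all rows. Tlr7, a receptor for single-stranded RNA, rose (1.27), from 0.27, 0.43 and 0.14 without to 1.41, 1.23 and 2.03 with Mta1 re-expressed. Those that fell were Cxcl5 (-1.50), the gelatinase Mmp9 (-1.39), Lbp (-1.36), the cytokine Il6 (-1.27), the hyaluronan synthase Has2 (-1.19) and Irf7 (-1.04). Has2 went from 0.24, 0.10 and 0.07 to -1.004, -1.17 and -0.99 and thus fell beside Tnfaip6. By adjusted p alone 14 of the 101 were higher, beside 12.4% of all rows, and 26 lower, beside 15.7%.

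In P53-KO/Mta1 against P53-KO, 7 of the 101 were called, beside 1.62% of all rows. The prostaglandin synthase Ptgs2 rose (1.70). Lbp (-4.74), Lcn2 (-3.26), the hyaluronan-linked protein Itih2 (-2.71), the acute phase protein Saa3 (-2.66), Cxcl5 (-2.06) and the nitric oxide synthase Nos2 (-1.14) fell. Itih2, a heavy chain of the inter-alpha-trypsin inhibitor, from which TSG-6 moves such chains onto hyaluronan, was 2.77, 2.92 and 2.84 in P53-KO and 0.09, 0.23 and 0.09 in P53-KO/Mta1. Its values in the 9 arrays of day 9.0 lay between -0.48 and 0.09. By adjusted p alone 21 of the 101 were higher, beside 15.7% of all rows, and 26 lower, beside 14.2%.

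**Figure D4:**
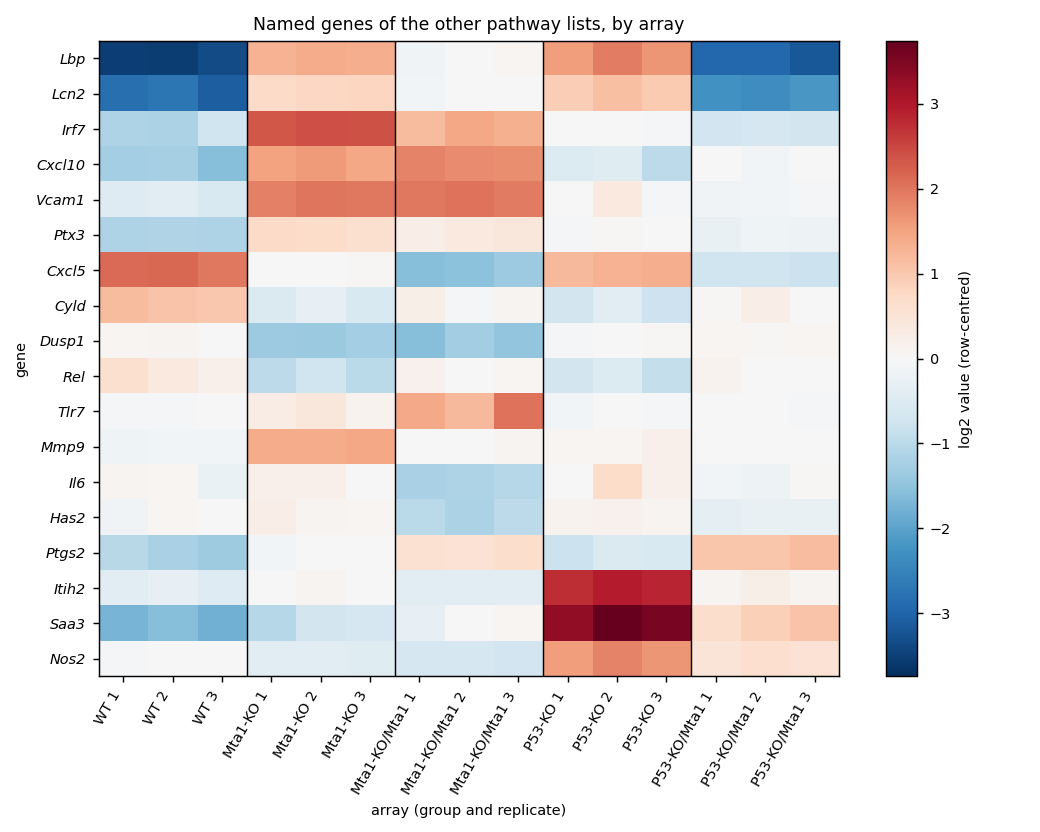
Centred log2 values of 18 named genes of the wider list (rows) on the 15 arrays (columns), from blue (below the row median) to red (above it). Lbp runs from -3.56 in WT to 1.93 in P53-KO, and Vcam1 and Cxcl10 are high in both groups of Mta1-/- MEFs.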

How the data were processed

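RNA of 15 samples was hybridised to exon arrays (Affymetrix, Mouse Exon 1.0 ST). The authors normalized the data in GeneSpring GX 10.0.2 and deposited log2 values with each row centred on its median. How exon probes were summarized was not given in the sources used here. A log2 base is from the study's methods, and the signal level and background are unknown, so depth and detection could not be assessed beyond the number of arrays. Array medians were -0.0165, -0.0052 and 0.0198 in WT, 0.0108, -0.0079 and 0.0148 for Mta1-KO, -0.0011, 0 and -0.0052 for Mta1-KO/Mta1, 0.0231, -0.0119 and 0.0174 in P53-KO, with 0, 0 and -0.00036 in P53-KO/Mta1. Probe names came from GEO's platform annotation, checked by Entrez ID against RefSeq (14941 matched, 0 changed). Of 16755 rows, 1019 name several genes and 740 none. They were tested but not named.

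All rows were fitted with limma 3.58.1 in R 4.3.3 with 1 mean a group (10 residual and 3.46 prior degrees of freedom), with p-values adjusted by Benjamini-Hochberg over all rows. The script was tested on simulated data. All members were described. From the wider list, up to 6 called genes in each direction and comparison with the largest fold were named, and for likeness the 3 rows of highest r. The row of largest SD stood for a gene with several rows. The members and lists were chosen with earlier results of these data known. The text names Csf1r and the called fibroblast markers in addition. Alternatives were quantile normalization, array median centring, only the compared arrays, other fold thresholds, the methods' t-test, a replicate block and leaving out each array. Motifs were searched with Python 3.11.15. Replicate numbers did not pair the arrays.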

Additional observations from a re-analysis of the deposited data

Results flagged for a closer look

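3 members had a response to added Mta1 that differed between the Mta1-/- and P53-/- MEFs by limma's test of the difference itself at an adjusted p under 0.05. Of all rows, 17.4% passed the same test, and 10.1% did so in the direction of these 3. The difference (response in Mta1-/- minus response in P53-/- MEFs, log2) was -0.60 for Tlr2 (adjusted p = 0.0063, -1.19 against -0.59). It was -0.72 for Nfkbia (adjusted p = 0.0036, -0.73 against -0.01). It was -0.32 for Tnfaip3 (adjusted p = 0.013, -0.14 against 0.19). None of the 3 reached 2-fold. Groups of 3 arrays are too small for a formal test of outlying arrays, and ranges with each array left out are given below.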

How the results depend on the processing

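In the 3 comparisons of the design, no called member lost its call under any alternative run for it, and every count of called members was the same (4 for the knockout, 2 for re-expression, 0 for over-expression in P53-/- MEFs and 0 for the difference of these responses) when any 1 array was left out. Calls of members in the other groups against WT were not recomputed under the alternatives. In the same order, dropping the minimum fold gave 9, 5, 4 and 3 members, and a minimum of 1.5-fold gave 5, 4, 2 and 2. The wider list went from 19, 7 and 7 called genes to 53, 40 and 47 with no minimum fold. With 1.5-fold it had 28, 16 and 14. Without single arrays it stayed within 19 to 20, 6 to 8 and 7 to 7. The called steps between neighbouring groups went from 2 to 18 and 8, and were 2 to 3 without single arrays. Called rows went from 1112, 186, 271 and 273 to 6732, 4698, 5003 and 2913 with no minimum fold and to 2647, 1008, 1151 and 1089 with 1.5-fold. These follow from the thresholds themselves.

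Signs turned only for values that were not called, and the cause was not tested. Quantile normalization gave 0.050 for Tlr3 and 0.36 for Tlr4 in Mta1-KO/Mta1 against Mta1-KO, 0.29 for the Tlr4 difference of responses, and 0.0085 for Nfkbia in P53-KO/Mta1 against P53-KO, where array median centring gave 0.00017. Without single arrays, the Tlr3 difference of responses lay between -0.068 and 0.063, and in P53-KO/Mta1 against P53-KO Ly96 lay between -0.10 and 0.44 and Nfkbia between -0.072 and 0.084. Adjusted p of the Tlr2, Nfkbia and Tnfaip3 differences of responses stayed at or below 0.0191, 0.0117 and 0.0347 under the alternatives run for them, which do not include the methods' t-test. Sizes of called differences also moved. Over the alternatives, Mta1-KO against WT lay between 1.97 and 2.62 for Tlr4 and between 1.54 and 1.99 for Tlr3. It lay between 1.79 and 2.16 for Tnfaip6 and between -1.51 and -1.27 for Cd14.

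Replicate numbers gave correlations of deviations between -0.38 and 0.42, so they were not used as pairs, and with the number as a replicate block the counts of called members stayed 4, 2, 0 and 0 and of called wider genes 19, 7 and 7, with 2 called steps between groups. A filter on dim probes, another background correction and the slide as a block could not be run, because centred values hold no signal level and no scan data were used here.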
